A study of Mus musculus with 20 samples.

Results

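The nuclear genes for the subunits of the oxidative phosphorylation complexes were followed in RNA from mouse hippocampus. Members were the protein-coding genes of the nuclear genome whose symbol starts with Nduf, Uqcr, Cox or Atp5 and that held at least 100 raw counts over the 20 libraries. There were 97 such genes among 55536 genes in the count table, of which 33626 had a count in some library. By known function, 36 were subunits of complex I, 8 of complex III, 19 of complex IV and 16 of complex V, which makes 79 subunits. The other 18 were assembly and other factors, such as the complex I assembly factors (Ndufaf genes) and the copper and heme A factors of complex IV. Among the genes with these prefixes, 14 that do not code for protein were left out, and 2 protein-coding entries (Cox8c and a second entry named Atp5o) lay under 100 counts.

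Oxidative phosphorylation takes place in the inner mitochondrial membrane. Complexes I, III and IV pass electrons from NADH by way of ubiquinone and cytochrome c to oxygen and pump protons, and complex V, the ATP synthase, uses the proton gradient to make ATP. All 4 complexes are built from subunits encoded in the nucleus together with a small number encoded in mitochondrial DNA. Neurons draw most of their ATP from this route, and the nuclear transcription factors NRF1, GABPA (an ETS factor, also called NRF2) and YY1 are known to act on many of these promoters.

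The mice were male, 12 weeks old, of the strain label C57BL/6J, and either wild-type (WT) or Fkbp5 knockout (KO). Fkbp5 encodes a co-chaperone of HSP90 that restrains the glucocorticoid receptor. They were injected once into the peritoneum with saline or with lipopolysaccharide (LPS, a component of bacterial cell walls) at 3 mg/kg, and the hippocampus was taken 7 days later. The 4 groups (WT saline, WT LPS, KO saline, KO LPS) held 5 libraries each. The labels describe neither the knockout allele nor whether each replicate was a separate animal, so p-values measure the spread between these libraries, which may be technical. In bulk tissue, fewer cells of a type and less RNA per cell cannot be told apart.

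Total counts were 16652992 to 27230202 per library (median 19642484). Levels are given in CPM, that is, counts divided by the library size that edgeR's TMM factors give. Fkbp5 itself stood at 56.7 to 73.4 CPM in the 10 WT libraries and at 25.1 to 36.0 CPM in the 10 KO libraries, without overlap. In every group, replicates 1 and 2 (8 libraries in all) stood apart from replicates 3 to 5 (12 libraries) over much of the transcriptome. The labels do not name these library sets, which were recognised from these data. The members took 0.871% to 1.18% of the counts in replicates 1 and 2 and 1.17% to 1.37% in replicates 3 to 5. Each of the 11 neuron markers checked had counts in every library set and genotype.

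The promoters are described first, and the part of their motifs in any difference between libraries was not tested. RefSeq promoters of GRCm38.p6, a window from 250 bases before to 50 after the gene start, were matched to 78 of the 97 members and set against the same window of 27025 mouse genes. On either strand, the NRF1 core (GCGCA, any base N, then GCGC) occurred in 16 of the 78 members (20.5%) and in 4.78% of all promoters. The ETS core CCGGAAG occurred in 20 members (25.6%) and in 9.12% of all promoters. The YY1 core AANATGGCG occurred in 10 members (12.8%) and in 2.51% of all promoters. At least 1 of the 3 motifs was present in 40 members (51.3%) against 14.7% of all promoters. The 27025 promoters were not limited to genes with counts in hippocampus, whereas members were chosen for their counts. The shares therefore do not compare like genes, and a comparison with expressed genes alone was not made. For each complex, the site below is the match before the gene start whose gene had the largest difference between the library sets. Of the assembly and other factors, Cox20 and Ndufaf4 are shown because they were higher in replicates 1 and 2. Other factors with a match before the gene start were lower, such as Ndufaf1 at -0.43 and Ndufaf8 at -0.39 on the log2 scale. Each stretch of 30 bases is written 5′ to 3′ in the direction of the gene, with the motif match in capitals.
Atp5k, complex V, NRF1 core, chr5:108434430-108434459, minus strand: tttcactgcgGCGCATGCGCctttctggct
Ndufb11, complex I, YY1 core, chrX:20617811-20617840, minus strand: tcaccaacacAAAATGGCGacgagaagaga
Uqcrh, complex III, ETS core, chr4:116075062-116075091, minus strand: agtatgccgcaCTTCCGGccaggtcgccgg
Cox6b1, complex IV, ETS core, chr7:30626124-30626153, minus strand: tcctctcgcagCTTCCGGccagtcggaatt
Cox20, assembly factor, ETS core, chr1:178319039-178319068, plus strand: gccagggcgggCTTCCGGacagccccagga
Ndufaf4, assembly factor, NRF1 core, chr4:24897960-24897989, plus strand: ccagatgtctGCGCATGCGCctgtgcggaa
Where the letters read CTTCCGG, the ETS core lies on the opposite strand to the gene. A match describes the letters of the window and not a bound site, and both members that were lower and members that were higher in replicates 1 and 2 carried one.

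Subunits of the same complex differed widely in level. In WT saline hippocampus, levels per kilobase of exon (CPM divided by the exon length of the gene in kilobases, mean over 5 libraries) had a median of 51.7 over complex I, 94.1 over complex III, 82.8 over complex IV, 62.9 over complex V and 7.10 over the assembly and other factors. Within complex I, Ndufb11 was highest at 132 ± 50.6 (SD, n = 5) and Ndufb2 lowest at 3.14 ± 0.316, both accessory subunits of the membrane arm. Complex III had the narrowest range, from Uqcr11, a small accessory subunit, at 163 ± 51.9 to the core protein gene Uqcrc1 at 59.6 ± 16.9. Complex V ran from the alpha subunit gene Atp5a1 at 353 ± 136 to Atp5l, the g subunit of Fo, at 16.1 ± 3.51. The scale divides by all annotated exon bases, so long annotation lowers the rank of a gene. Atp5l (6443 bases) held 40841 raw counts over all libraries, more than Atp5k (616 bases) at 20296. Uqcrc1 (4135 bases) held 97971 raw counts, the most of complex III. Ndufb2 (5628 bases) was lowest of complex I in raw counts too, at 7251. Among the factors, Cox14, needed for complex IV assembly, was highest at 87.4 ± 16.1, and Cox20, another complex IV assembly factor, lowest at 0.532 ± 0.594. Complex IV split into subunits above 40 and subunits below 5 on this scale. Cox8a was highest at 710 ± 168, followed by Cox6a1 at 589, and Cox8b was lowest at 0.648 ± 0.415. The large SDs of the abundant subunits follow the library sets, as given below for the sums.

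**Figure D1:**
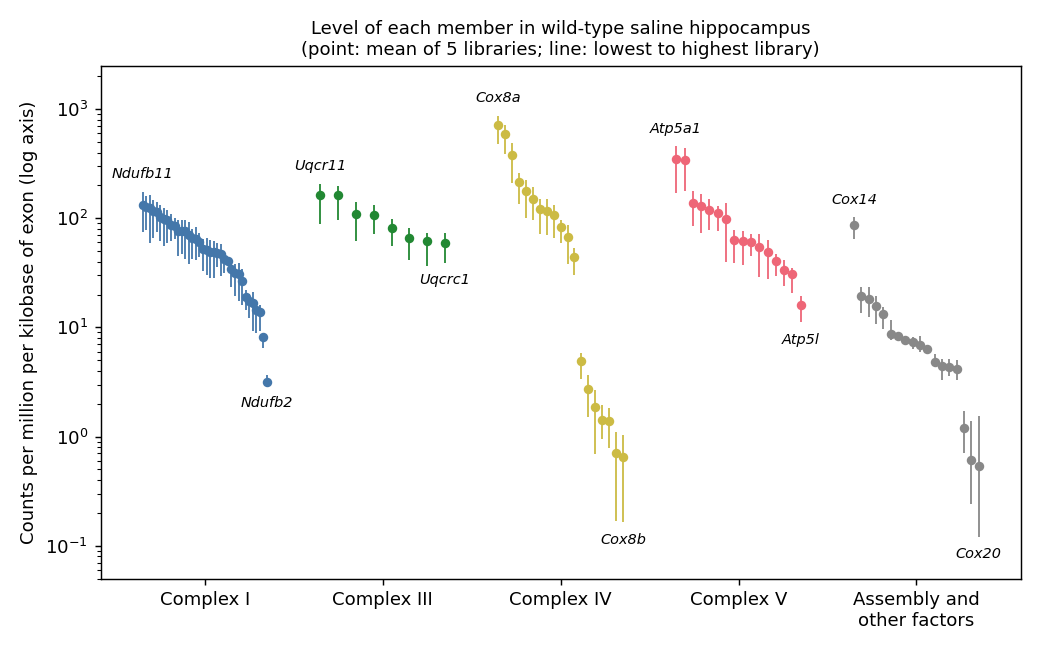
Level of each of the 97 members in WT saline hippocampus by complex, in CPM per kilobase of exon on a log axis; points are means of 5 libraries and lines run from the lowest to the highest library. Cox8a at 710 is the highest member, and the complex IV points fall into a high and a low cluster.

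The low complex IV members are paralogs of the high ones. Several subunits of cytochrome c oxidase exist as isoforms, with Cox6a2, Cox7a1 and Cox8b known as the heart and skeletal muscle forms and Cox4i2 as a form of lung. As a share of the summed level per kilobase of the isoforms of 1 subunit over all 20 libraries, Cox4i2 made up 0.440% ± 0.126 (SD, n = 20), Cox6a2 0.715% ± 0.255 and Cox8b 0.0973%. Cox7a1 made up 0.744% ± 0.290. The other genes of its family were close to each other, with Cox7a2 at 47.7% ± 2.63 and its relative Cox7a2l at 51.6% ± 2.69. Ndufa4l2 took 1.89% ± 0.643 of the level it shares with Ndufa4, a complex IV subunit first assigned to complex I. The c subunit of the ATP synthase was the exception, since all 3 of its genes were well expressed. Atp5g3 supplied 55.9% ± 2.73 of the c-subunit level per kilobase, Atp5g2 28.8% and Atp5g1 15.3%. The order of Atp5g2 and Atp5g1 rests on the exon lengths used, 1675 and 4912 bases. In raw counts over all libraries the order was reversed, with 63838 for Atp5g1 and 41023 for Atp5g2. The Atp5g3 share was 51.3% to 53.8% in replicates 1 and 2 and 55.7% to 59.6% in replicates 3 to 5, without overlap. The shares of the other genes overlapped between the library sets. Atp5g2 held 28.5% to 32.0% against 26.4% to 29.4%, and Atp5g1 15.4% to 17.6% against 13.1% to 15.7%.

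Which of these genes respond to LPS or to loss of Fkbp5 was tested with all 20 libraries in 1 fit, using edgeR's quasi-likelihood test and a Benjamini-Hochberg adjusted p under 0.05 over 16419 genes. Of the 97 members 95 were tested. Cox7b2, with 2 to 12 counts per library, and Cox8b, with 1 to 12, did not pass the filter on low counts. No member was called for LPS in WT (0% of all genes called), LPS in KO (0.00609%), KO against WT after saline (0.171%), KO against WT after LPS (0.146%), the interaction of genotype and LPS (0%), the LPS main effect (0.0426%) or the KO main effect (0.439%). At an unadjusted p under 0.05, 1 member passed for KO against WT after saline (2.67% of all genes) and 1 for the KO main effect (4.79%), the same gene in both. In the other comparisons 0 members passed at that level, against 2.07% of all genes for LPS in WT, 1.75% for LPS in KO, 3.27% for KO after LPS, 1.11% for the interaction and 2.71% for the LPS main effect. DESeq2 called 0 members in every one of the 7 comparisons. By limma-voom, Uqcr10 was called lower in KO after saline (2.2% of all genes) at -0.44 ± 0.11 (SE; adjusted p = 0.0424). In the same tool Cox5b and Uqcr10 were called for the KO main effect (3.26% of all genes) at -0.34 ± 0.09 (adjusted p = 0.035) and -0.32 ± 0.08 (adjusted p = 0.0365). No member had non-overlapping groups in any of the 4 comparisons of pairs of groups, against 0.445% of all genes for LPS in WT, 0.39% for LPS in KO, 0.737% for KO after saline and 0.828% for KO after LPS. Each group held libraries of both library sets, so a gene whose sets do not overlap cannot separate 2 groups. That held for 41 members lower and 1 higher in replicates 1 and 2 (11.1% and 10.9% of all genes). The 0 therefore cannot be read against these shares.

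The member that passed without adjustment was Cox6a2, the muscle form of subunit VIa. Its levels in WT saline replicates 1 to 5 were 3.66, 2.31, 3.90, 2.84 and 3.98 CPM, and in WT LPS 1.30, 3.94, 3.93, 3.18 and 3.46 CPM. KO saline libraries held 1.74, 2.51, 2.84, 2.30 and 1.55 CPM, and KO LPS libraries 2.57, 1.95, 1.47, 3.39 and 3.26 CPM. Of the KO saline values 3 lay below the lowest WT saline library and 2 within the WT saline range. The log2 fold change of KO against WT was -0.61 ± 0.29 after saline (SE; edgeR adjusted p = 1) and -0.46 ± 0.20 as main effect (adjusted p = 0.913). Markers of striated muscle were summed at 6.11 to 10.2 CPM in every library set and genotype, and their part in this value was not tested.

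Between groups of 5 libraries the members' fold changes were small against their errors, with a median SE of 0.211 on the log2 scale (0.299 for the interaction). The median log2 fold change was -0.07 for LPS in WT, with 10 of 95 members above 0, and 0.04 for LPS in KO, with 69 above 0. KO against WT had a median of -0.08 after saline (16 above 0) and 0.04 after LPS (68 above 0). The corresponding medians over all genes tested were -0.02, 0.01, -0.02 and 0.00. For the interaction, which shares every library with these comparisons, 85 of 95 members lay above 0 with a median of 0.12, against 0.02 over all genes. None of the 4 medians between pairs of groups kept its sign when each library was left out in turn. They ran from -0.18 to 0.03 for LPS in WT, from -0.03 to 0.11 for LPS in KO, from -0.20 to 0.00 for KO after saline and from -0.05 to 0.12 for KO after LPS, where limma-voom also gave -0.05. The interaction median ran from 0.03 to 0.24 and the medians of the LPS and KO main effects from -0.07 to 0.03 each. Since the members rise and fall together across libraries, such counts of direction do not add up like independent genes. The members with the 3 smallest p-values in each comparison are given as values. The smallest for LPS in WT belonged to the complex I assembly factor gene Ndufaf2 at -0.19 ± 0.15 and for LPS in KO to Cox4i2 at 0.43 ± 0.24, both with an edgeR adjusted p of 1. Next were Atp5s, the coupling factor B gene, at -0.12 ± 0.11 and Cox20 at 0.73 ± 0.70 for LPS in WT, and the copper factor Cox11 at -0.23 ± 0.14 and Ndufab1, the mitochondrial acyl carrier protein, at 0.17 ± 0.11 for LPS in KO. After saline, KO against WT was -0.32 ± 0.21 for Uqcr10 and -0.18 ± 0.13 for Cox18, behind Cox6a2. For KO against WT after LPS the smallest belonged to Ndufab1 at 0.21 ± 0.11 (edgeR adjusted p = 1), followed by Atp5j2 and by Cox20 at -1.15 ± 0.71. For the interaction they were Ndufaf2 at 0.30 ± 0.21, Ndufab1 at 0.22 ± 0.15 and Atp5j2 at 0.27 ± 0.22. Cox11 at -0.19 ± 0.10, Atp5s at -0.12 and Cox4i2 at 0.26 ± 0.17 led the LPS main effect, and Cox6a2, Cox11 at -0.17 ± 0.10 and Atp5j2 at 0.16 ± 0.11 the KO main effect. A log2 difference of the size of these standard errors was not detectable in groups of 5 libraries that each span both library sets.

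**Figure D2:**
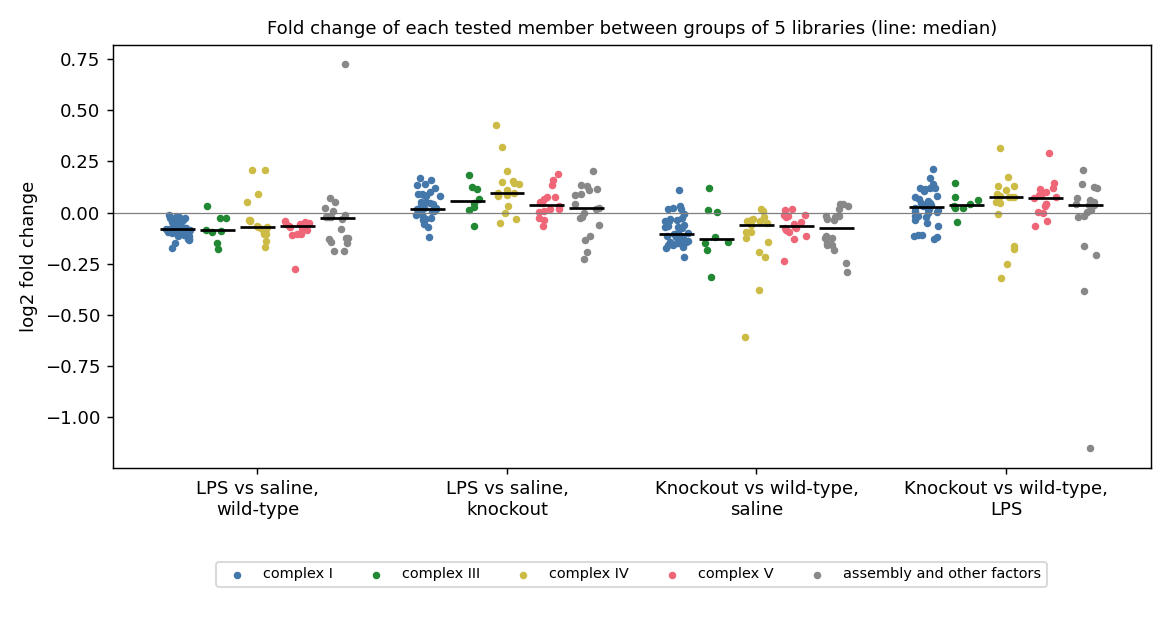
Log2 fold change of each of the 95 tested members in the 4 comparisons between pairs of groups, by complex; points are members and black lines medians. Medians lie near 0 in each comparison, and the points farthest out are Cox20, which held 2 to 32 counts per library, and Cox6a2.

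Atp5j2, the f subunit of Fo, showed how far the library sets entered these errors. It stood at 79.2, 70.5, 108, 107 and 114 CPM in WT LPS replicates 1 to 5 and at 110.1, 115, 119, 119.7 and 122 CPM in KO LPS. In WT saline it stood at 90.8, 67.9, 117, 116 and 116 CPM, and in KO saline at 82.6, 96.8, 108, 119 and 108 CPM. Replicates 1 and 2 were the low libraries of WT LPS, and the KO LPS group had no library as low. KO against WT after LPS was 0.29 ± 0.15 (edgeR adjusted p = 1). With a term for the library set in the same fit the value was 0.32 ± 0.09, which did not pass either (edgeR adjusted p = 0.217). That term left 0 members called in all 7 comparisons.

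The sum over all 79 subunits separated the library sets in each group. In replicates 1 and 2 it was 8581 ± 1098 CPM (SD, n = 8; 7618 to 10622) and in replicates 3 to 5 it was 13322 ± 820.1 CPM (SD, n = 12; 12207 to 14478), without overlap. The 13 subunits encoded in mitochondrial DNA were separated in the same direction, with sums of 33063 to 42533 CPM in replicates 1 and 2 and 74559 to 106187 CPM in replicates 3 to 5. Each complex showed the gap on its own. Complex I summed to 2066 to 2887 CPM against 3018 to 3724 CPM, complex III to 710.1 to 1007 against 1103 to 1318 CPM, complex IV to 1793 to 2719 against 3006 to 3609 CPM and complex V to 2787 to 4010 against 4974 to 5860 CPM. No complex overlapped between the sets, and the gap of complex V was the widest of the 4.

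**Figure D3:**
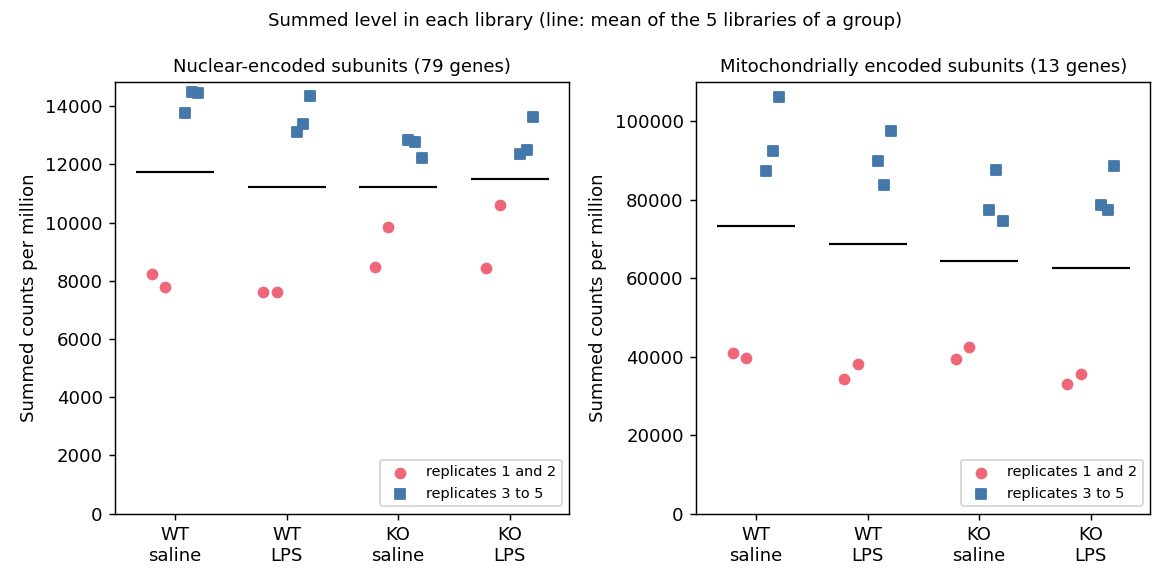
Summed CPM of the 79 nuclear-encoded subunits (left) and the 13 mitochondrially encoded subunits (right) in each of the 20 libraries by group; circles are replicates 1 and 2, squares replicates 3 to 5, and lines the mean of 5 libraries. Every circle lies below every square in both panels, while the 4 group means of the nuclear subunits lie between 11218 and 11741.

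Member by member, 85 of 95 were called between the library sets by edgeR's test, 78 lower and 7 higher in replicates 1 and 2. Because the sets were recognised from these data, and 64.3% of all genes were called (34.1% higher, 30.2% lower), this is a description of the sets. The median over members was -0.50 on the log2 scale against 0.03 over all genes. Scaling by library totals in place of TMM moved both, to -0.23 for members and 0.30 for all genes, so the members lay below the other genes by a like amount under either scaling. All 16 complex V and all 8 complex III subunits were lower, with medians of -0.69 and -0.53. In complex I 34 of 36 were lower with a median of -0.54, and in complex IV 12 of the 17 tested with a median of -0.52. The assembly and other factors did not share this shift, with 8 lower, 6 higher and a median of -0.08.

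In 41 members, 39 of them subunits, all 8 libraries of replicates 1 and 2 lay below all 12 of replicates 3 to 5 (11.1% of all genes). Cox7a2l ran from 105 to 132 CPM (median 114) in replicates 1 and 2 and from 192 to 241 CPM (median 208) in replicates 3 to 5. Atp5g3 ran from 156 to 219 (median 178) against 295 to 365 CPM (median 334), and Ndufb9, of the complex I membrane arm, from 39.5 to 58.1 (median 49.1) against 77.0 to 96.2 CPM (median 85.4). The log2 differences were -0.84 ± 0.05 for Cox7a2l (edgeR adjusted p = 1.58e-10), -0.88 ± 0.07 for Atp5g3 (adjusted p = 9e-10) and -0.83 ± 0.07 for Ndufb9 (adjusted p = 3.64e-09). By p the list went on with Atp5e, the epsilon subunit of F1, at -0.83 and Atp5o, the OSCP subunit of the peripheral stalk, at -0.77. Atp5k, the e subunit of Fo, had the lowest value at -1.09 and ran from 23.7 to 45.4 CPM against 45.3 to 84.8 CPM, so its ranges touched.

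Of the members higher in replicates 1 and 2, Cox17 stood out, the copper chaperone that feeds complex IV. It was the only member with all 8 libraries above all 12 (10.9% of all genes), at 4.15 to 7.95 CPM (median 5.80) against 0.981 to 1.86 CPM (median 1.47), a log2 difference of 1.97 ± 0.13 (edgeR adjusted p = 2.41e-10). Cox20 followed at 1.48, on 217 counts over all libraries, and was not called by limma-voom (0.97, adjusted p = 0.0658). Next were the complex I assembly factor gene Ndufaf4 at 0.32, the complex IV factor Cox18 at 0.26 and the complex I factor Ndufaf7 at 0.16, whose call was lost without the filter on low counts (0.15, edgeR adjusted p = 0.134). Ndufb2 was the only subunit called higher, at 0.16. Cox17 overlaps the predicted gene Gm21987 on its own strand, Cox20 overlaps Hnrnpu on the opposite strand and Ndufb2 overlaps Braf and a pair of predicted genes. Since the strand setting of the counting is not given in the sources used here, reads of these 3 genes and their neighbours may be mixed. In all, 45 of the 97 members overlap another gene, and 13 have a near copy elsewhere in the transcriptome (an alignment of 95% identity or more that spans 30% or more of the transcript), among them Uqcr10, Cox5b, Atp5k and Ndufb11.

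**Figure D4:**
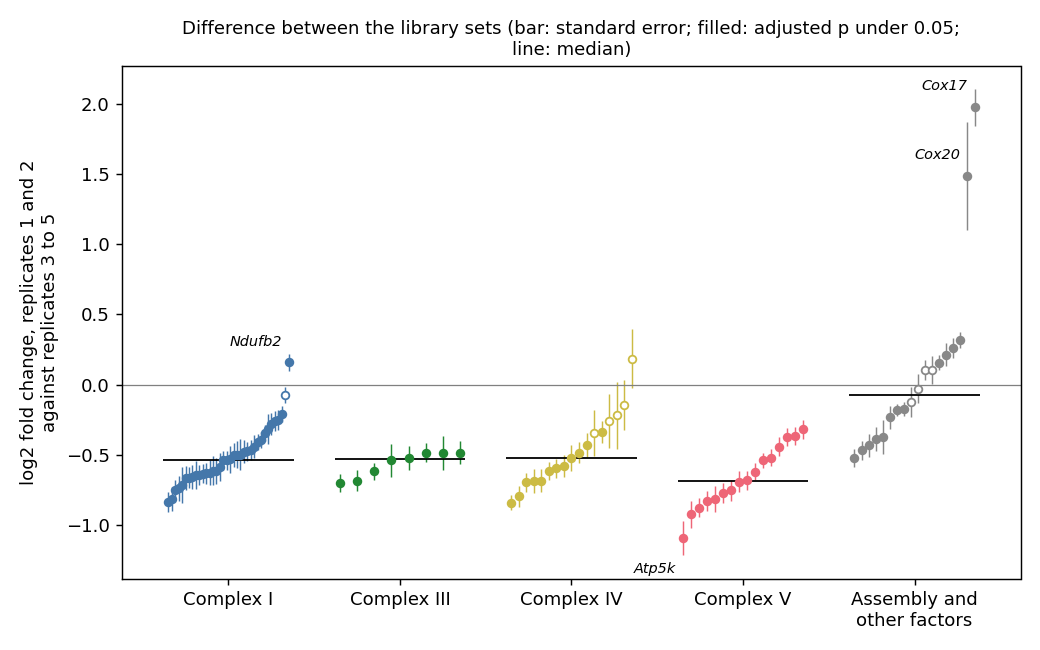
Log2 fold change of replicates 1 and 2 against replicates 3 to 5 for each of the 95 tested members by complex; bars are standard errors, filled points passed an adjusted p under 0.05 and lines are medians. The 4 complexes sit near or below -0.5, the assembly and other factors around 0, and Cox17 at 1.97 is the highest.

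Other genes of the pathway, from lists of complex II with cytochrome c, of mitochondrially encoded subunits, of further assembly factors, of regulators of the complexes and of transcriptional regulators, gave a like division between the library sets. All 5 tested genes of the first list, the complex II genes Sdha to Sdhd and the cytochrome c gene Cycs, were lower in replicates 1 and 2, with a median of -0.50. Of the 13 mitochondrially encoded subunits 9 were called lower and 0 higher, with a median of -1.11. Of 28 tested assembly factors 12 were lower and 3 higher, with a median of -0.11, and of 11 transcriptional regulators 1 was lower (Tfam, the mitochondrial transcription factor, at -0.23) and 2 higher (Ppargc1a at 0.24 and Nrf1 at 0.20). The complex regulators Atpif1, Higd1a and Higd2a were all lower in replicates 1 and 2, with a median of -0.27. Between the 4 groups, edgeR called 0 genes of these 5 lists in any of the 7 comparisons, and the median of the 13 mitochondrially encoded subunits was -0.16 in the KO main effect, with all 13 below 0. Markers of other cells moved with the sets too. All 7 astrocyte markers and all 6 microglia markers were lower in replicates 1 and 2, with medians of -0.66 and -0.56, and 3 of 6 choroid plexus markers were called lower (median -0.58). The 11 neuron markers had a median of 0.06 with 3 called lower and 3 higher. Other lists held members called higher, 4 of 9 thalamus markers (median 0.19), 2 of 6 endothelial markers (median 0.19) and 3 of 7 oligodendrocyte markers (median -0.04). The part of these cell types in the subunits' shift was not tested.

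The comparison of KO with WT was then made within each library set. In replicates 3 to 5, with 6 WT and 6 KO libraries, 30 of 77 tested subunits were called lower in KO and 0 higher, and in replicates 1 and 2, with 4 and 4, 74 of 77 lay above 0 and 0 were called. Within replicates 3 to 5, edgeR called 32 of 94 tested members in the KO main effect (8.1% of all genes), all of them lower (3.38% of all genes lower, 4.72% higher), with a median of -0.13 against 0.00 over all genes. Of these, 19 were among the 36 complex I subunits, 4 among the 8 of complex III, 2 among the 17 tested of complex IV, 5 among the 16 of complex V and 2 among the 17 tested factors. At an unadjusted p under 0.05, 49 passed (23.3% of all genes). DESeq2 called 36 (9.63% of all genes), and limma-voom also called 36 (9.55%). Left out in turn, WT saline replicate 4 or KO saline replicate 5 reduced edgeR's count to 17 (4.14% and 4.31% of all genes). Leaving out WT saline replicate 5 or WT LPS replicate 5 gave 19 (4.37% and 4.17%), and KO LPS replicate 3 gave 20 (5.44%). The highest count was 37 (9.16%). Without WT LPS replicate 4 and KO saline replicates 4 and 5 together it was 5 (2.45%). Those libraries were picked by hand after the data were seen and not by a rule given here. The split is an alternative made after the data were seen.

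The 3 smallest p-values belonged to Uqcr10, Cox5b and Ndufa1, small accessory subunits of complexes III, IV and I. Uqcr10 stood at 112, 116 and 112 CPM in WT saline replicates 3 to 5 and at 111, 104 and 109 CPM in WT LPS. In KO it stood at 88.1, 84.8 and 80.8 CPM after saline and at 88.9, 84.3 and 99.5 CPM after LPS. Every KO library lay below every WT library of the set, and the log2 difference was -0.34 ± 0.05 (edgeR adjusted p = 0.000186). Cox5b, which binds zinc in complex IV, stood at 225, 240.3 and 229 CPM in WT saline, at 214, 209 and 223 CPM in WT LPS, at 193, 189 and 165 CPM in KO saline and at 141, 181 and 172 CPM in KO LPS. Its libraries did not overlap either, with a difference of -0.37 ± 0.06 (edgeR adjusted p = 0.000607).

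Ndufa1 stood at 59.7, 68.5 and 66.3 CPM in WT saline replicates 3 to 5, at 60.9, 58.3 and 64.2 CPM in WT LPS, at 53.9, 52.8 and 48.9 CPM in KO saline and at 40.1, 52.3 and 40.0 CPM in KO LPS. The KO libraries were again all below the WT libraries, by -0.40 ± 0.06 (edgeR adjusted p = 0.000993). The complex III subunits Uqcr11 (-0.30 ± 0.05, adjusted p = 0.00187) and Uqcrq (-0.21 ± 0.04, adjusted p = 0.00304) came next in edgeR's order. In 10 members all 6 KO libraries lay below all 6 WT libraries (1.35% of all genes), and in 0 all lay above (1.65%). Those 10 were Uqcr10, Uqcrq, Cox5b, Cox14, Atp5o, Ndufa1, Ndufa2, Ndufa3, Ndufa5 and Ndufb8. In this set KO against WT called 12 members after saline (3.22% of all genes, 1.1% lower) and 3 after LPS (0.76%, 0.361% lower), all lower, the latter being Ndufa1, Ndufa2 and Cox5b.

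The mitochondrially encoded subunits and other pathway genes were compared in the same 12 libraries. All 13 lay below 0 in KO against WT, with a median of -0.24, and 3 were called lower, mt-Nd1 at -0.23, mt-Nd4 at -0.28 and mt-Co2 at -0.76. Their sum was 83627 to 106187 CPM in WT and 74559 to 88567 CPM in KO, with overlap. Cycs was lower at -0.17 (edgeR adjusted p = 0.0418), and 0 of the 4 complex II genes were called. Of the further assembly factors 2 of 28 were called, both lower (8.1% of all genes called, 3.38% lower): Pet100 at -0.36 and Coa3 at -0.17, both complex IV factors. No transcriptional regulator of the 11 was called by edgeR, and their median was 0.00.

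Within replicates 1 and 2 no member was called (0.0564% of all genes, 0.0508% higher and 0.00564% lower), by edgeR, DESeq2 or limma-voom. At an unadjusted p under 0.05, 32 of 95 passed, against 6.47% of all genes. That number was 21 by DESeq2 and by limma-voom and 8 with library totals. It was 2 without WT LPS replicate 2, 4 without KO saline replicate 2, 7 without KO LPS replicate 2, 8 without WT saline replicate 2, 14 without WT LPS replicate 1 and 48 without KO LPS replicate 1. In this set 88 of 95 members lay above 0, with a median of 0.27 against 0.00 over all genes. The smallest p belonged to Ndufa13, an accessory subunit of complex I, at 0.43 ± 0.12 (edgeR adjusted p = 0.757), followed by Atp5j2 at 0.41 and Ndufb6 at 0.38. In 5 members, among them Ndufa13 and Ndufb6, all 4 KO libraries lay above all 4 WT libraries (2.2% of all genes), and in 0 below (2.41%). The sum over the subunits shows both sets. It was 7812 ± 289 CPM in WT and 9349.9 ± 1072 CPM in KO in replicates 1 and 2 (SD, n = 4 each; 7618 to 8229 against 8434 to 10622), and 13925 ± 592 CPM in WT and 12718.5 ± 506 CPM in KO in replicates 3 to 5 (SD, n = 6 each; 13115 to 14478 against 12207 to 13626).

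**Figure D5:**
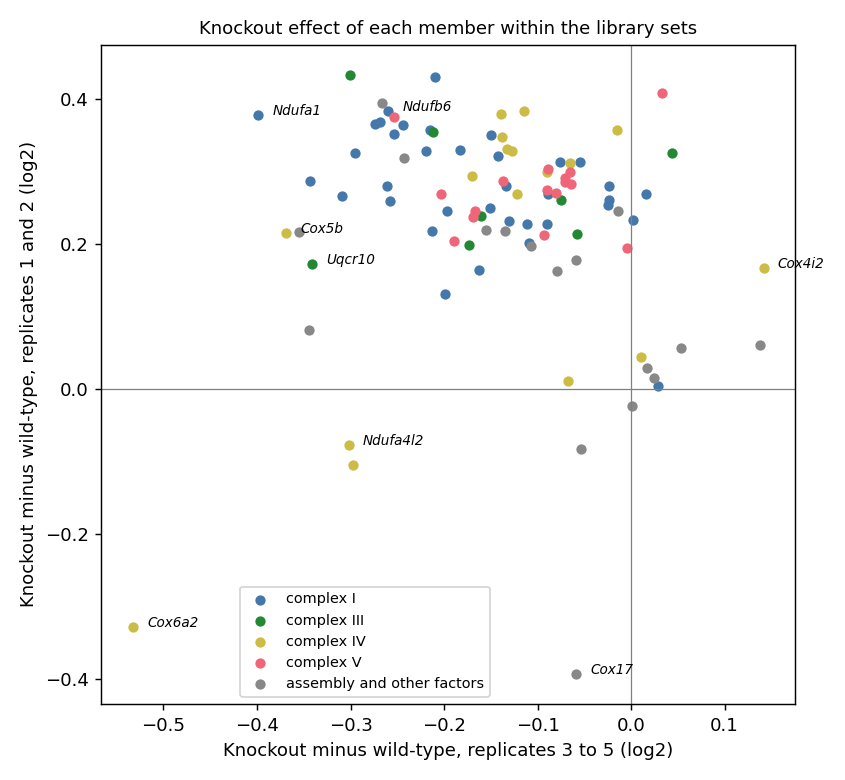
Log2 fold change of KO against WT for each of the 94 members tested in both library sets, replicates 3 to 5 on the horizontal axis and replicates 1 and 2 on the vertical axis, coloured by complex. Of the points, 77 lie in the upper left quadrant (lower in KO in replicates 3 to 5, higher in replicates 1 and 2), 11 are above 0 in both sets, 5 below 0 in both and 1 in the remaining quadrant.

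The difference of the KO effect between the sets was itself tested, as the effect in replicates 1 and 2 minus that in replicates 3 to 5, in 1 fit over all 20 libraries. Its median over members was 0.35 against -0.02 over all genes, and 87 of 95 members lay above 0. At an unadjusted p under 0.05, 70 passed (15.7% of all genes). After adjustment edgeR called 5 (0.122% of all genes, 0.0731% higher and 0.0487% lower), all above 0. This count was not stable: DESeq2 called 40 (3.01% of all genes), limma-voom 0, and edgeR with library totals in place of TMM 0, while leaving out 1 library gave 0 to 57. It was 57 without KO LPS replicate 1 (9.11% of all genes called), 33 without WT saline replicate 1 (1.42%) and 23 without KO saline replicate 1 (0.819%). Without WT LPS replicate 1 or KO LPS replicate 4 it was 9 (0.359% and 0.155%). It was 2 without KO LPS replicate 5 (0.0656%), 1 without KO saline replicate 4 (0.0775%) and 0 without any 1 of the other 13.

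The 5 were the complex I subunits Ndufa13 (0.61 ± 0.11), Ndufb6 (0.62 ± 0.11), Ndufb11 (0.58 ± 0.11) and Ndufa12 (0.58 ± 0.11), each with an edgeR adjusted p of 0.0398, and the complex IV assembly factor Cox14 (0.53 ± 0.10, adjusted p = 0.0414). Ndufb6 in replicates 1 and 2 stood at 35.3 and 31.0 CPM in WT saline, 30.3 and 33.0 CPM in WT LPS, 35.9 and 38.8 CPM in KO saline and 41.6 and 51.2 CPM in KO LPS. In replicates 3 to 5 it stood at 61.1, 63.0 and 60.1 CPM in WT saline, 50.3, 51.5 and 57.5 CPM in WT LPS, 54.4, 49.0 and 48.6 CPM in KO saline and 41.5, 50.4 and 43.3 CPM in KO LPS. The KO libraries of both sets thus lay between the WT libraries of replicates 1 and 2 and those of WT saline replicates 3 to 5.

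Ndufa13 showed the same arrangement. In replicates 1 and 2 it stood at 65.9 and 56.5 CPM in WT saline, 59.7 and 59.9 CPM in WT LPS, 66.3 and 78.1 CPM in KO saline and 79.8 and 98.1 CPM in KO LPS. In replicates 3 to 5 it stood at 118, 119 and 118 CPM in WT saline, 110.2, 107 and 118 CPM in WT LPS, 97.9, 107 and 105 CPM in KO saline and 88.9, 95.7 and 104 CPM in KO LPS. The gap between the sets was wide in WT and narrow in KO, and in KO LPS the libraries of the sets overlapped. For the LPS effect the same difference between the sets gave 0 calls by edgeR, DESeq2 and limma-voom (0% of all genes by edgeR), 8 members at an unadjusted p under 0.05 (3.61% of all genes) and 64 of 95 above 0. The smallest p-values there were those of Ndufb6 at 0.31, Ndufs6 at 0.39 and Uqcr11 at 0.38.

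Several other measures were compared between the genotypes within the sets. Among cell markers in KO against WT, all 11 neuron markers lay above 0 in replicates 1 and 2 (median 0.25; summed level 5938 to 7375 CPM in WT and 5606 to 7996 in KO) and 9 of 11 in replicates 3 to 5 (median 0.07; 7634 to 8295 and 7907 to 8343 CPM). All 7 oligodendrocyte markers lay below 0 in both sets (medians -0.40 and -0.19), with sums of 3981 to 6299 CPM in WT and 3484 to 4375 in KO in replicates 1 and 2. In replicates 3 to 5 those sums were 2906 to 3889 CPM in WT and 2359.7 to 3628 in KO. In that set all 6 microglia markers lay below 0 (median -0.15, 2 called lower; 431 to 546 CPM in WT and 379 to 488 in KO), as did all 6 endothelial markers (median -0.22, 2 called lower). In replicates 1 and 2, by contrast, 5 of 6 microglia markers lay above 0 (median 0.04; 278 to 330.0 CPM in WT and 265 to 377 in KO), and 2 of 6 endothelial markers (median -0.16). Astrocyte markers had a median of 0.18 in replicates 1 and 2, with 5 of 7 above 0 (3554 to 5131 CPM in WT and 3224 to 5171 in KO). In replicates 3 to 5 their median was -0.09, with 3 of 7 above 0, 1 called higher and 1 lower (5795 to 6694 and 5927 to 6446 CPM). In the difference of the KO effect between the sets, medians were 0.203 for microglia, 0.145 for neurons, 0.0878 for endothelium and 0.0604 for astrocytes, the direction of the subunits. They were -0.184 for oligodendrocytes, -0.17 for mural cells, -0.53 for meningeal fibroblasts and -0.136 for striated muscle. Thalamus markers had -0.0699 and choroid plexus -0.0319, against -0.02 over all genes. Of all these markers, edgeR called 0 for that difference. In KO against WT, choroid plexus markers lay above 0 for 5 of 6 in both sets, with 1 called higher in replicates 3 to 5. All 8 meningeal fibroblast markers lay above 0 in replicates 3 to 5 (median 0.25, 1 called higher) and 3 of 8 in replicates 1 and 2 (median -0.11). In replicates 3 to 5, 1 oligodendrocyte and 1 mural cell marker were called lower and 1 thalamus marker higher. EdgeR called 0 neuron markers in either set. No marker of these lists was at 0 in any set and genotype.

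Transcript length was set against the KO effect as well. Across all genes, the Spearman correlation of the log2 fold change with transcript length was 0.348 in replicates 3 to 5 and -0.14 in replicates 1 and 2, and across the members it was 0.436 and -0.188 (descriptions across genes of the same libraries). The median transcript length was 1129 bases over the tested members and 3241 bases over all genes tested. The correlation with GC content over all genes was 0.0373 and 0.0633. The part of cell makeup and of transcript length in the members' differences was not tested.

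The members also varied together beyond these groupings. With each group centred separately in each library set, the median correlation between pairs of subunits over the 20 libraries was 0.573 (77 subunits), against 0.105 between pairs of assembly and other factors (18 genes) and 0.00418 between pairs of all genes. These values share libraries and depth and are given as a description.

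Of the members, 3 lie within 20 Mb of Fkbp5 on chromosome 17, where DNA of the line in which a knockout was made can remain. They are the complex I genes Ndufa7 (chr17:33824572-33838317), Ndufb10 (chr17:24722060-24724478) and Ndufv3 (chr17:31520115-31531331), in GRCm38. Their KO main effects over all 20 libraries were 0.07 ± 0.14, -0.07 ± 0.16 and -0.01 ± 0.10 (SE), and 0 of the 3 were called by edgeR. Within replicates 3 to 5, Ndufv3 at -0.18 (edgeR adjusted p = 0.0307) and Ndufb10 at -0.20 (adjusted p = 0.0358) were among the 32 members called lower.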

How the data were processed

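RNA-seq of mouse hippocampus was measured in 20 libraries. The values the authors deposited are raw counts of reads for each gene, not normalized. Per the submitters' processing notes, reads were trimmed with Trimmomatic 0.38, inspected with FastQC and MultiQC and counted with featureCounts 1.6.0 on mm10. Per the labels, libraries came from 1 µg of total RNA (RNeasy Plus Mini kit, NEBNext Ultra RNA kit). The aligner, annotation release, strand setting and treatment of reads mapping to several places are not given in the sources used here. All 55536 gene identifiers matched GENCODE M21 of GRCm38.

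The tests used edgeR 4.0.16 in R 4.3.3 (TMM, filterByExpr by group with 16419 genes kept, robust quasi-likelihood fit, Benjamini-Hochberg adjustment over all genes tested, threshold 0.05). The group test was also run on simulated counts that held no difference between the library sets. That run cannot show the error or power of the group tests in these libraries. Alternatives were DESeq2 1.42.0, limma 3.58.1 (voom with quality weights), other scalings and filters, a replicate block, a library set term, each library set alone and each library left out. Within replicates 3 to 5, 15523 genes were tested and within replicates 1 and 2, 17718. Near copies were found with blastn 2.17.0+. Members, lists and tests were chosen with earlier results of these data known. Named in each comparison were all members past the threshold if 10 or fewer, otherwise the 5 smallest p-values in each direction, and the 3 smallest p-values where fewer than 3 passed. Members named for extreme levels, paralogs and position near Fkbp5 were also fixed by rule, and those named for libraries that do not overlap were chosen after their values were seen. The splits by library set, the difference between the sets and its alternatives were added after the data were seen. Protein sequences were not used here.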

Additional observations from a re-analysis of the deposited data

Results flagged for a closer look

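In 196 sets of 5 libraries checked for a single outlying library, 6 had one. The check flags about 1 in 20 by chance where values are independent and come from a single distribution. Here each group spans both library sets, and the sets of values share libraries and members, so that rate cannot be applied. In KO LPS replicate 1, the complex IV assembly factor Cox18 stood at 13.6 CPM (the other libraries of the group 9.09 to 10.4), the complex IV subunit Cox6a1 at 365 CPM (431 to 457) and the muscle form of another subunit, Cox8b, at 0.435 CPM (0.169 to 0.218). Cox6a2 stood at 1.30 CPM in WT LPS replicate 1 (3.18 to 3.94), Cox20 at 0.980 CPM in KO saline replicate 2 (0.145 to 0.337) and the complex I assembly factor Ndufaf2 at 17.4 CPM in KO LPS replicate 2 (9.98 to 12.1). Cox8b and Cox20 rest on 100 and 217 counts over all libraries.

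The KO effect differed between the library sets in edgeR's test of the difference for Ndufb6 (0.62), Ndufa13 (0.61), Ndufb11 (0.58), Ndufa12 (0.58) and Cox14 (0.53), as the effect in replicates 1 and 2 minus that in replicates 3 to 5 on the log2 scale.

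Ndufb1-ps, which the annotation lists as a non-coding gene and which is therefore no member, held 17480 counts over the 20 libraries. Its level was 28.4 ± 6.37 CPM in replicates 1 and 2 (SD, n = 8) and 57.1 ± 5.85 CPM in replicates 3 to 5 (SD, n = 12), the direction of most subunits, while the 4 groups lay at 42.4 to 48.8 CPM.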

How the results depend on the processing

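For the 7 comparisons between groups, DESeq2, the library set term and the replicate block left 0 members called. Limma-voom called 1 for KO against WT after saline and 2 for the KO main effect. Replicates 3 to 5 alone gave 12 for KO after saline, 3 for KO after LPS and 32 for the KO main effect. The median difference between the library sets was -0.23 with library totals in place of TMM. Of the 476 counts and medians recomputed under planned settings, 470 stayed within 1.5 times the reported count or 1 spread of the value. Many of them were counts of 0 set against 0. For medians between groups, the spread also held the gap between the library sets, which made the limit wide. The number therefore does not measure how stable the results are. Medians near 0 did not keep their sign: with 1 library left out it turned in 6 of the 7 comparisons between groups, the interaction excepted. Pairing by replicate number was not established. After removal of the group means, same-numbered libraries correlated at 0.264 to 0.854 and other libraries of the same set at 0.191 to 0.672. The block for the replicate number called 0 members in each comparison.

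Some values were added after the data were seen. Of these, the count for the KO effect within replicates 3 to 5 ran from 17 to 37 with 1 library left out. The share of all genes called ran from 4.14% to 9.16% in the same fits. Without WT LPS replicate 4 and KO saline replicates 4 and 5, picked by hand, the count was 5 (2.45% of all genes). For the difference of the KO effect between the sets, the count was 40 by DESeq2 (3.01% of all genes), 0 by limma-voom and 0 with library totals. It was 40 (median 0.44; 4.61% of all genes) without the 3 libraries highest in thalamus markers (WT LPS replicates 1 and 4, KO LPS replicate 1). With 1 library left out it ran from 0 to 57 (9.11% of all genes at 57). The cause of these changes was not tested.

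Depth limits the scarce isoforms: Cox7b2 and Cox8b did not pass the filter on low counts. Between the sets, Cox20 was not called by limma-voom and Ndufaf7 not without that filter.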
